A study of Saccharomyces cerevisiae with 2 samples.

Results

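Oxidative protein folding in the endoplasmic reticulum (ER) was described here through 9 genes of budding yeast, Saccharomyces cerevisiae, chosen by symbol from the 5734 genes of the series table. The rule named 5 members of the protein disulfide isomerase family (PDI1, MPD1, MPD2, EUG1 and EPS1), 2 thiol oxidases (ERO1 and ERV2), and the sensor and transcription factor of the unfolded protein response (IRE1 and HAC1). All 9 were in the table, all had reads in both libraries, and all passed the minimum of 5 RPKM (reads scaled to gene length and library total) on the mean of both libraries.

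Secreted and membrane proteins enter the ER with reduced cysteines, and their disulfide bonds are made there. Pdi1 and its relatives pass disulfides to these clients and reshuffle wrong ones, Ero1 re-oxidises Pdi1 with oxygen through its flavin, and glutathione is the low-molecular-weight thiol of the same compartment. When unfolded proteins accumulate, the kinase and nuclease Ire1 cuts HAC1 mRNA, the tRNA ligase Trl1 joins its exons, and the Hac1 protein activates genes for chaperones and folding enzymes.

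The strains were 2-10515, given as wild type, and Y518, given as a mutant and described in the series title as a high producer of glutathione. The labels name no mutated gene, and the relation of Y518 to 2-10515 is not given in the sources used here. Each strain was grown from a single colony, as a seed culture for 18 h and then in fermentation for 24 h at 30 °C and 180 rpm, and each gave 1 library of mRNA. With 1 library per strain there was no test between strains, and every difference below compares these 2 libraries and has no replicate check. In bulk cultures, fewer cells that express a gene and less of its mRNA per cell cannot be told apart. Intervals are exact 95% intervals for counting error only; they hold neither the spread between cultures nor the choice of scaling.

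The libraries held 4.71 M uniquely mapped reads for 2-10515 and 4.32 M for Y518, and the median gene had 234 and 262 reads. The 9 genes together took 0.191% of the 2-10515 reads and 0.299% of the Y518 reads. The median log2 ratio of Y518 over 2-10515 was 0.27 for the 5415 genes above the RPKM minimum, so a gene at the median was listed at a higher level in Y518. Ratios relative to that median are therefore given where they change a statement.

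The enzymes carry their chemistry in short cysteine motifs, and the coding sequences below show what sets the isomerases apart from each other. They were read from the RefSeq records that the table lists, in the R64 reference, 5′ to 3′ on the gene's strand. Capitals mark the first and last codon of each thioredoxin-type site found. The sites are codons 61 to 64 and 406 to 409 of PDI1, 59 to 62 of MPD1 and 56 to 59 of MPD2. They are codons 60 to 63 of EPS1, and 62 to 65 and 405 to 408 of EUG1.
PDI1 first site: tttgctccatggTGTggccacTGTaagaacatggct
PDI1 second site: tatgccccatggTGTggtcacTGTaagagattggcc
MPD1: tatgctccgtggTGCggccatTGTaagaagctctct
MPD2: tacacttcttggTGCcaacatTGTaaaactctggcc
EPS1: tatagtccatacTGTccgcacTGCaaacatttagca
EUG1 first site: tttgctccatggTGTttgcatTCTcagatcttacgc
EUG1 second site: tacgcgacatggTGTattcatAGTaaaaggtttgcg
In PDI1, MPD1, MPD2 and EPS1 both marked codons of every site shown code for cysteine. In both EUG1 sites the last marked codon codes for serine. Sites were searched as codons for cysteine, any amino acid, histidine, then cysteine or serine, right after a codon for tryptophan or tyrosine. In that form PDI1 and EUG1 hold 2 sites, and MPD1, MPD2 and EPS1 hold 1 each. Sites of another form were not searched, so these are not full counts.

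The oxidases have another arrangement, with cysteines next to the flavin that hands electrons to oxygen. Capitals mark the cysteine codons within codons 349 to 355 of ERO1, 121 to 124 of ERV2, and 176 to 178 in the tail of ERV2. That tail shuttles electrons from the clients to the flavin side. Which of the marked ERO1 cysteines lie next to the flavin was not tested. Cysteine codons elsewhere in ERO1 are not shown, so the sequences do not tell whether ERO1 has shuttle cysteines too.
ERO1: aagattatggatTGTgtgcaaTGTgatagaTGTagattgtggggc
ERV2 flavin side: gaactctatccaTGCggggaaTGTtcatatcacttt
ERV2 tail: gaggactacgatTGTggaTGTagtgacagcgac

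**Figure D1:**
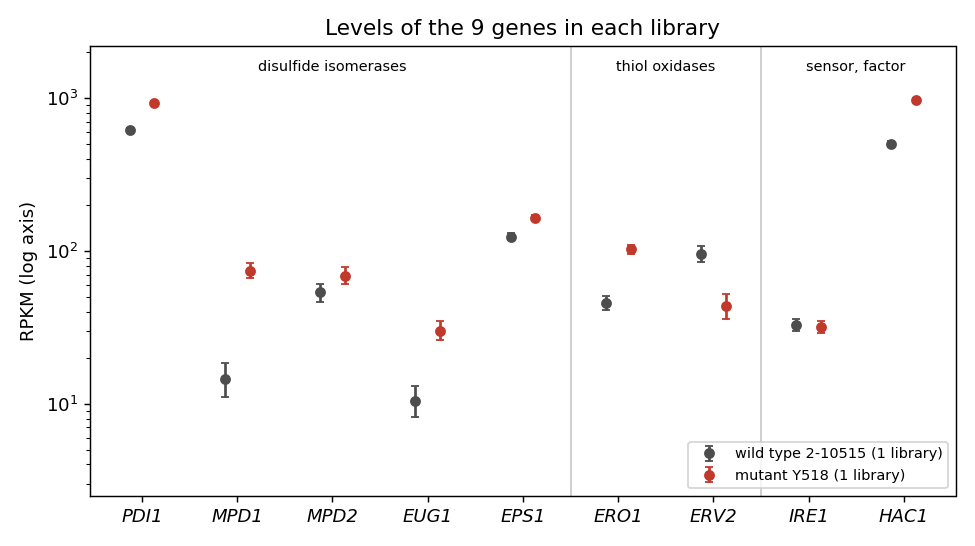
RPKM (log axis) of the 9 genes in the 2-10515 library (grey) and the Y518 library (red), with exact 95% counting intervals as bars. PDI1, MPD1, EUG1, EPS1, ERO1 and HAC1 lie higher in Y518 and ERV2 lower, with bars that do not overlap. The bars of MPD2 and IRE1 overlap, but overlap is not a check of a ratio. The counting interval of the ratio was 1.07 to 1.56 for MPD2 and 0.86 to 1.10 for IRE1.

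The 9 genes held 3 that were at least 2-fold higher in Y518 (MPD1, EUG1 and ERO1), 1 at least 2-fold lower (ERV2) and 5 within 2-fold, on the scale of log2(RPKM + 1). Among all genes above the minimum, 19.9% were at least 2-fold higher and 8.88% at least 2-fold lower on the same scale. With 9 genes, 3 higher and 1 lower is not far from those shares. The median log2 ratio of the 9 genes was 0.59, against 0.27 over all genes, and 7 of the 9 lay above the median of all genes. The exceptions were ERV2 and IRE1. With ratios centred on that overall median, 2 of the 9 stayed at least 2-fold higher and 1 lower, beside 13.2% higher and 13.6% lower among all genes. The gene lost from the higher group was ERO1.

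**Figure D2:**
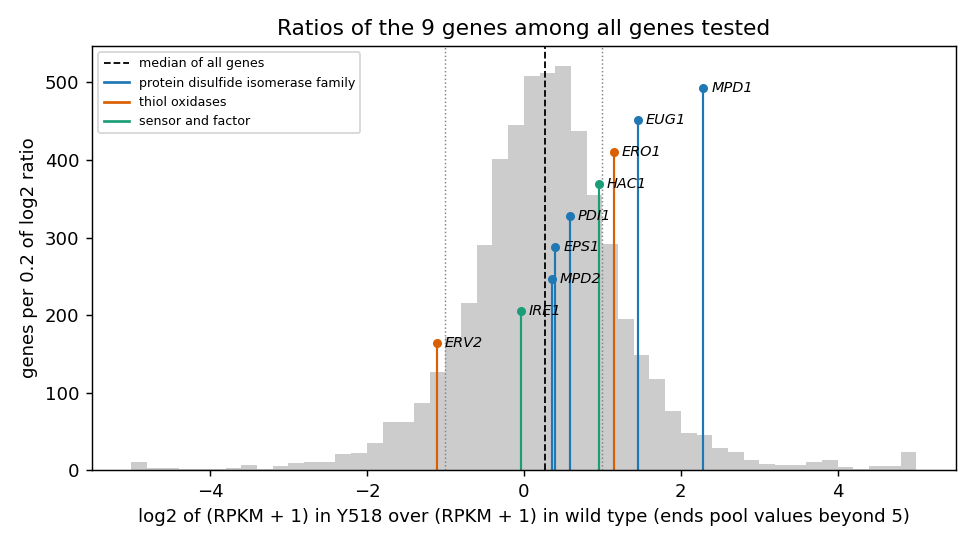
Histogram of the log2 ratio of (RPKM + 1) in Y518 over 2-10515 for the 5415 genes above the minimum (grey), with the 9 genes as coloured stems whose height has no meaning. The dashed line is the median of all genes at 0.27 and dotted lines mark 2-fold; the 9 genes run from ERV2 at -1.11 to MPD1 at 2.29.

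PDI1 (YCL043C, chromosome III), the essential isomerase, was the most abundant of its family in both libraries. It had 4580 reads in 2-10515 and 6331 in Y518, or 620 and 935 RPKM. The ratio of reads per library total was 1.51 (interval 1.45 to 1.57). Its rank by RPKM among all 5734 genes was 243 in 2-10515 and 168 in Y518. The difference was thus within 2-fold, with a centred log2 ratio of 0.32.

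MPD1 (YOR288C, chromosome XV), a Pdi1 relative whose overproduction can replace Pdi1, differed most among the 9 genes. It had 65 reads in 2-10515 and 307 in Y518, or 14.4 and 74.3 RPKM. That is a 5.15-fold higher level in Y518 (interval 3.93 to 6.84). The log2 ratio of 2.29 was above that of 96.8% of the genes above the minimum, and it was 2.01 after centring. By RPKM it was at rank 4466 in 2-10515 and at rank 2082 in Y518.

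EUG1 (YDR518W, chromosome IV), the relative with a serine codon in place of the last cysteine codon at each site shown, had the lowest RPKM of the 9 in both libraries. Its counting interval overlapped that of MPD1 in 2-10515 and that of IRE1 in Y518. EUG1 is described here by its own reads. EUG1 had 76 reads in 2-10515 and 202 in Y518, or 10.4 and 30.1 RPKM. That is 2.90-fold higher in Y518 (2.22 to 3.83), with a log2 ratio of 1.45 and a centred ratio of 1.18. Reads covered 83.78% of its length in 2-10515, and genes of like read density in that library had a median of 83.0%.

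MPD2 (YOL088C, chromosome XV) and EPS1 (YIL005W, chromosome IX) differed little. MPD2, another relative that can stand in for Pdi1 when overproduced, had 210 and 248 reads, or 53.5 and 68.9 RPKM, a ratio of 1.29 (1.07 to 1.56). EPS1, a membrane-anchored member involved in the quality control of plasma membrane proteins, had 1233 and 1496 reads, or 124 and 165 RPKM, a ratio of 1.32 (1.23 to 1.43). Centred on the median of all genes, their log2 ratios were 0.09 and 0.13, close to the middle of the table.

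The make-up of the family was compared within each library, where the scaling between libraries cancels in shares and ratios. The 5 isomerase genes summed to 823 RPKM in 2-10515 and 1272 RPKM in Y518, and these sums do depend on the scaling. PDI1 made up 75.4% and 73.5% of these sums, and EPS1 15.1% and 12.9%. MPD2 made up 6.50% and 5.41%, and EUG1 1.26% and 2.37%. MPD1 went from 1.75% to 5.84%, and its RPKM relative to MPD2 went from 0.27 to 1.08. The counting interval of that change was 2.86-fold to 5.62-fold. Relative to PDI1, MPD1 was 3.42-fold higher in Y518 (2.60 to 4.55) and EUG1 1.92-fold higher (1.47 to 2.54). For MPD2 the same comparison gave 0.85 with an interval of 0.71 to 1.04, which holds 1, and for EPS1 0.88 (0.81 to 0.96).

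**Figure D3:**
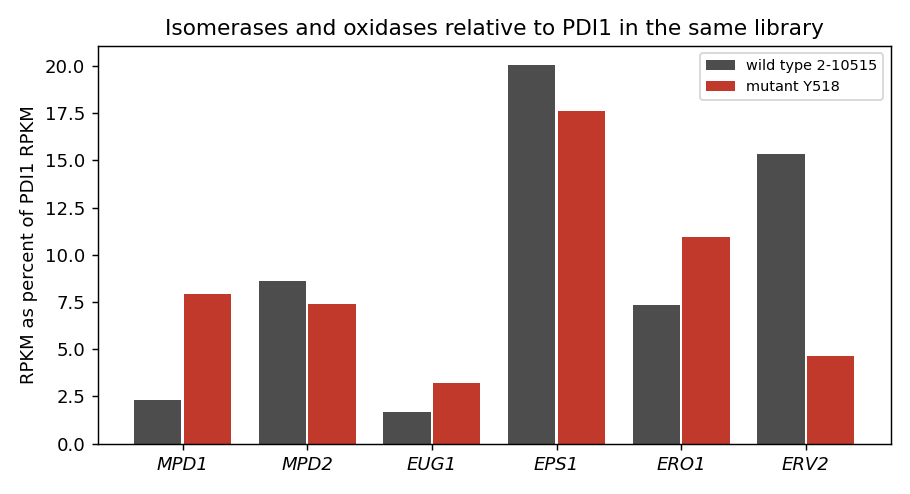
RPKM of 4 isomerase genes and 2 oxidase genes as a percent of the PDI1 RPKM of the same library, 2-10515 in grey and Y518 in red, 1 library each. MPD1 went from 2.33% to 7.95% and ERV2 from 15.4% to 4.65%, while EPS1 and MPD2 changed least in proportion.

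The 2 oxidases differed in opposite directions. ERO1 (YML130C, chromosome XIII), the essential oxidase of Pdi1, had 363 reads in 2-10515 and 747 in Y518, or 45.6 and 102 RPKM. It was 2.24-fold higher in Y518 (1.98 to 2.55), with a log2 ratio of 1.15, which was 0.88 after centring and 0.89 with TMM scaling and so within 2-fold there. ERV2 (YPR037C, chromosome XVI), a small flavin oxidase, had 265 and 111 reads, or 95.2 and 43.5 RPKM. It was 2.19-fold lower in Y518 (1.75 to 2.76), with a log2 ratio of -1.11 and of -1.39 after centring. Of all genes above the minimum, 7.42% had a lower ratio.

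The order of the oxidases turned over between the libraries. Per length, ERV2 stood 2.09 times above ERO1 in 2-10515, and ERO1 stood 2.35 times above ERV2 in Y518. The ERO1 to ERV2 ratio was thus 4.91-fold larger in Y518 (counting interval 3.78 to 6.40), a value that no scaling of the libraries changes. ERO1 relative to PDI1 was 1.49-fold higher in Y518 (1.30 to 1.70), and ERV2 relative to PDI1 was 3.30-fold lower (2.63 to 4.17). In the R64 annotation 203 bases of ERV2 overlap IRC16 on the other strand. Strand use in counting is not given, so reads of the pair could not be told apart, and the part of IRC16 in the ERV2 values was not tested. None of the other 8 genes overlaps an annotated gene.

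IRE1 and HAC1 form the signalling end of the system. IRE1 (YHR079C, chromosome VIII), the sensor, had 517 reads in 2-10515 and 461 in Y518, or 32.8 and 31.9 RPKM. The ratio was 0.97 with an interval of 0.86 to 1.10, which holds 1 as the authors scaled the libraries. Relative to the median of all genes it was 0.80 (0.71 to 0.91), an interval below 1, so the statement depends on the scaling. HAC1 (YFL031W, chromosome VI), the transcription factor, had 1689 and 3010 reads, or 500.3 and 972 RPKM. Its ratio of 1.94 (1.83 to 2.06) lay just under the 2-fold rule, with a log2 ratio of 0.96, or 0.68 after centring. Inside each library HAC1 stood 15.3 times above IRE1 in 2-10515 and 30.5 times in Y518, a change of 2.00-fold (1.73 to 2.30).

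HAC1 mRNA needs a closer look, because its output depends on splicing and not on its level alone. The listed length of 717 bases is that of the joined exons, 661 and 56 coding bases that an intron of 252 bases separates in the R64 reference. The join in the listed record is shown with the start of exon 2 in capitals.
HAC1 exon join: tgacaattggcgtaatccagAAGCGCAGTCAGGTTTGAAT
Reads left 4 of the 717 bases uncovered in 2-10515 and 1 in Y518, so both exons carried reads. Spliced and unspliced mRNA share these exons, and the table has no count for the intron or for reads across the join. The share of HAC1 mRNA that was spliced therefore could not be read from either library.

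In order of level, the 2-10515 library ran PDI1, HAC1, EPS1, ERV2, MPD2, ERO1, IRE1, MPD1 and EUG1. In Y518 the order was HAC1, PDI1, EPS1, ERO1, MPD1, MPD2, ERV2, IRE1 and EUG1. Neighbours whose counting intervals overlapped were MPD2 with ERO1 and MPD1 with EUG1 in 2-10515. In Y518 they were HAC1 with PDI1, MPD1 with MPD2, and IRE1 with EUG1. ERV2 went from place 4 to place 7 and MPD1 from place 8 to place 5.

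Reads covered most of the length of all 9 genes in both libraries. Coverage in Y518 ran from 96.0% for IRE1 to 99.88% for MPD2. In the wild type it ran from 83.78% for EUG1 and 88.40% for MPD1 to 99.52% for MPD2. Genes with a read density like that of MPD1 in 2-10515 had a median coverage of 88.9%. No stretch of 50 bases in any of the 9 coding sequences was found a second time in the R64 genome. The strains' own genomes were not used here.

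The wider ER folding machinery gave context through 6 lists of genes. Of 10 ER chaperone genes, 4 had levels in Y518 at least 2-fold higher, 0 lower and 6 within 2-fold, with a median log2 ratio of 0.83, beside 19.9% higher and 8.88% lower among all genes. After centring 3 of the 10 passed, beside 13.2% of all genes. KAR2, the ER Hsp70 and best-known target of Hac1, had 2575 reads in 2-10515 and 7945 in Y518, or 267 and 898 RPKM, 3.37-fold higher (3.22 to 3.52). LHS1, a second Hsp70 of the ER, was 2.82-fold higher (2.40 to 3.32). SIL1, the nucleotide exchange factor of Kar2, was 2.88-fold higher (2.36 to 3.54), on 134 reads in 2-10515. ERJ5, an ER J-protein, was 2.33-fold higher (1.88 to 2.91), but its log2 ratio was 0.92 after centring. KAR2 went from 0.43 of the PDI1 level in 2-10515 to 0.96 in Y518.

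A list of 9 textbook Hac1 targets outside the members, which shares 6 genes with the chaperone list and 2 with the degradation list, had 3 genes higher and 1 lower, or 33.3% and 11.1% beside 19.9% and 8.88% of all genes, with a median of 0.49. The higher genes were again KAR2, LHS1 and SIL1. The lower gene was ULI1, which the unfolded protein response is known to induce, with 97 reads in 2-10515 and 22 in Y518, 4.04-fold lower (2.52 to 6.75). Known targets of this response among the members include PDI1, EUG1 and ERO1, with log2 ratios of 0.59, 1.45 and 1.15. This is not a full list of the targets among the members.

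ER-associated degradation, which clears misfolded proteins, had 2 of 15 genes higher and 0 lower, with a median of 0.43. That is 13.3% of the list, below the 19.9% of all genes that were higher, and after centring it was 1 of 15. SSM4, the Doa10 ubiquitin ligase, had 710 and 1624 reads and was 2.49-fold higher (2.28 to 2.73). MNL1, the mannosidase that marks misfolded glycoproteins and works in a complex with Pdi1, was 2.16-fold higher on 90 reads in 2-10515 (1.66 to 2.81) and was under 2-fold after centring. Of 8 partners of IRE1 and HAC1 splicing, among them the ligase gene TRL1, 0 were higher and 0 lower (median 0.19). Of all genes 19.9% were higher and 8.88% lower, and a list of 8 is short for such shares. After centring 1 of the 8, TPT1 at a log2 ratio of -1.12, was lower. TRL1 had 68 and 65 reads.

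Flavin synthesis, which makes the cofactor of Ero1 and Erv2, had 0 of 8 genes higher or lower and a median log2 ratio of -0.05. Its highest gene was RIB5 at 0.43 and its lowest FMN1, riboflavin kinase, at -0.35. The disulfide relay of mitochondria, the counterpart of the ER system, had 0 of 3 genes past 2-fold, with a median of -0.70. Among all genes 19.9% were at least 2-fold higher and 8.88% lower, and both of these lists are short. After centring 1 gene of the relay was lower. MIA40, the oxidoreductase of that relay, had 1570 reads in 2-10515 and 884 in Y518. ERV1, its flavin oxidase and a relative of ERV2, had 547 and 302 reads, and both log2 ratios lay below the median of all genes, at -0.70 and -0.73.

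**Figure D4:**
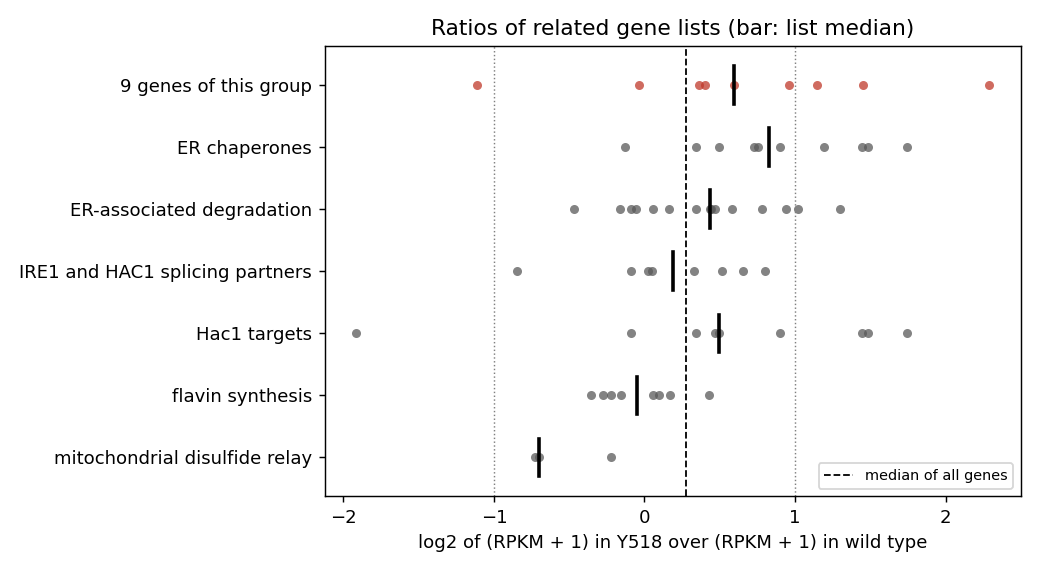
Log2 ratio of (RPKM + 1) in Y518 over 2-10515 for each gene (points) of the 9-gene group (red) and of the 6 related lists (grey), with the list median as a bar, the median of all genes as a dashed line and 2-fold as dotted lines. The chaperone median is 0.83, the flavin synthesis median -0.05 and the mitochondrial relay median -0.70.

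The bases before the coding start were searched for letters tied to the unfolded protein response. The search was added after the values were seen, and it used 5 motifs on both strands of the 250 bases before the start codon of 5685 genes in the R64 reference. The first was CAGCGTG, the core of the classical element. The second was CAGNGTG, which leaves the middle base of the first open and so includes the first. The others were TACGTG, then the shorter ACGTG that lies within it, and last the letters CGACGTG, which also hold the shorter form. TACGTG was found before 3 of the 9 genes, MPD1, EUG1 and ERO1, and before 7.04% of all genes. These are the 3 members past 2-fold in the direction of Y518 as the authors scaled the libraries, and without ERO1, at a log2 ratio of 0.88, after centring. The matches are shown on the strand that holds the motif, with the motif in capitals, 102 to 97 bases before the start of MPD1, 174 to 169 before EUG1 and 139 to 134 before ERO1.
MPD1, opposite strand: tatttaactttTACGTGtcaattttaat
EUG1, opposite strand: caactatcgttTACGTGttttgaaggga
ERO1, gene strand: acgatacggagTACGTGtcataaaaact
Across the table the letters went with little difference, since 23.0% of 387 genes above the minimum with TACGTG were at least 2-fold higher in Y518, against 19.5% of 5008 genes without it. CAGCGTG was found before 0 of the 9 genes and 1.04% of all genes, and KAR2 holds it 160 to 154 bases before its start. Among the Hac1 targets outside the members only KAR2 was looked up, so which others hold it is not shown.
KAR2, gene strand: gaggaactggaCAGCGTGtcgaaaaagtt
CAGNGTG, with the middle base open, was found before 0 of the 9 genes and 4.68% of all genes. Forms of the classical element that vary at other bases were not searched, so 0 matches do not show that a gene lacks it. The letters CGACGTG were found before 0 of the 9 genes and 0.985% of all genes. ACGTG was found before 6 of the 9 (the 3 above, ERV2, IRE1 and HAC1) and 20.4% of all genes. A match is a description of the reference sequence, and the strains' own sequences were not used here.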

How the data were processed

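The data were read counts per coding sequence from 1 mRNA library of each of 2 strains. The deposited counts are uniquely mapped reads per gene, per the file headers, with a dash for a gene without a read. The deposited percent is the share of the listed length covered by reads, and the deposited RPKM scales the counts to listed length and library total; it was recomputed with 0 mismatches at a relative tolerance of 1e-06. Series and single-library tables differed in 0 counts. Lengths are coding lengths. The aligner, counter, strand use and build are not stated in the labels or headers used here. RefSeq records were looked up by version in R64: 5685 of 5734 matched, all with equal length, among them all 9 members. No coordinates are printed, since the files name no build.

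Log2 ratios of RPKM with a pseudocount of 1 were taken for the 5415 genes whose mean RPKM reached 5, and called at 2-fold. A single gene's fold divides its reads by each library total, with no pseudocount, and has an exact conditional binomial interval. RPKM intervals are exact Poisson, and changes of within-library ratios have exact conditional odds-ratio intervals. PCR duplicates are not independent molecules. The members and lists were chosen with earlier results of these data known. Named are all members, KAR2, and up to 5 listed genes past 2-fold per list; TRL1, RIB5, FMN1, MIA40, ERV1 and the motifs were chosen after values were seen. Calls and intervals were also run on simulated counts that held counting error only. Such counts cannot check the calls against the spread between cultures. Alternatives used TMM (edgeR 4.0.16), median-of-ratios factors (DESeq2 1.42.0), centring, other pseudocounts, thresholds and filters, in R 4.3.3 and Python 3.11.15 with scipy 1.17.1.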

Additional observations from a re-analysis of the deposited data

How the results depend on the processing

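No paired analysis was possible because each strain has 1 library, and for the same reason no library could be left out. The median log2 ratio of the 9 genes, 0.59 as scaled by the authors, was 0.33 with TMM, 0.31 with median-of-ratios factors, 0.32 after centring and 0.54 when the 10 most abundant genes of each library were left out of the totals. Higher genes of ER-associated degradation numbered 1 in place of 2 under each of these 4 scalings and with a pseudocount of 5. With TMM, median-of-ratios factors or centring, 1 partner of IRE1 and HAC1 splicing (TPT1, lower) passed 2-fold in place of 0, and with the last 2 of these 1 gene of the mitochondrial relay (ERV1, lower) did. At a 1.5-fold rule 5 of the 9 genes were higher, as were 7 chaperone and 4 degradation genes. At that rule 3 splicing partners (SPT20 and KIN2 higher, TPT1 lower) and 2 relay genes (MIA40 and ERV1, lower) passed. At 3-fold, 1 of the 9 was higher and 0 lower, and 1 chaperone gene and 0 degradation genes were higher. Of the Hac1 targets, 1 was higher and 1 lower at that rule. Shares of all genes were taken at 2-fold only, so the counts at 1.5-fold and 3-fold cannot be set beside the whole table. The 9 members gave 63 log2 ratios under the 7 alternatives to scaling, pseudocount and filter. The filter cannot alter a gene's ratio, and a rescaling moves all ratios by a similar amount. That no called gene changed sign is therefore no check of the calls. MPD1 stayed between 2.01 and 2.36, EUG1 between 1.18 and 1.53 and ERV2 between -1.39 and -1.05. ERO1 ranged from 0.87 to 1.16. Depth limits MPD1 and EUG1 most, with 65 and 76 wild-type reads.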
